A study of Mus musculus with 6 samples.

Results

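The circadian clock genes described here are 10 transcripts of the mammalian daily timekeeping loop, namely Arntl (also called Bmal1), Clock, Per1, Per2, Per3, Cry1, Nr1d1, Nr1d2, Dbp and Nfil3. They were taken from the table by gene symbol, as known clock components, with earlier results of these data known. All 10 were present among the 23282 genes of the deposited table, each in a single row, and all 10 had enough reads to be tested among 11657 genes. The samples were cultures of primary hepatocytes from the livers of C57BL/6N mice (written C57BL6/N in the labels), which were plated for 3 h and, after a change of medium, either left untreated as controls (3 samples) or given recombinant IL-1β, an inflammatory cytokine, for 24 h (3 samples). The title of the series speaks of metabolically stressed cells, but the sample labels name no treatment other than IL-1β. The design text gives one number of samples per group and lists another, and the table holds 3 per group, all of which were used. The age and sex of the mice, the hour of the day at which cells were isolated or lysed, and whether the 3 cultures of a group came from separate animals were not given in the sources used here. The p-values below therefore measure the spread between these samples, which may be technical. The study gives an IL-1β dose for hepatocytes treated with the recombinant protein in another measurement and does not restate it for the sequenced cultures. Every library was taken at the same 24 h, so a change in the average level of a rhythmic transcript and a shift of its phase cannot be told apart.

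In the clock of mammalian cells, the proteins CLOCK and BMAL1 bind E-box sequences as a dimer and activate the Per and Cry genes, whose products return to the nucleus and inhibit that dimer. In a second loop, the nuclear receptors REV-ERBα and REV-ERBβ, encoded by Nr1d1 and Nr1d2, repress Arntl and Nfil3 through RORE sequences, on which the ROR receptors act in the opposite direction. Dbp, an activator, and Nfil3, a repressor, bind the D-box and connect the loop to rhythmic genes of liver metabolism. The liver is an organ in which many transcripts follow this rhythm.

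Sequence before the transcription start was examined because it is where these loops meet the genes. RefSeq start sites on GRCm38.p6 were available for 9 of the 10 members, all but Per2, and gave 13 windows of 250 bases upstream of a start. On both strands, the E-box CACGTG was present in 2 of these 13 windows and in 6.02% of all 32851 windows of the table. The D-box TTANGTAA was present in 1 of 13 (2.06% of all windows), as was the RORE written ANTAGGTCA (0.548%). The cAMP response element TGACGTCA (1.55% of all windows) and the NF-κB site written as GGGNN followed directly by TTTCC (1.41%) had no match in the 13 windows. Other spellings of these sites were not searched. The 4 members with a match are shown 5′ to 3′ on the strand of the gene, with the matches in capitals. The windows are chr10:85185065-85185304 (minus strand, 250 to 11 bases before the start) for Cry1 and chr11:69098699-69098947 (plus strand, 250 to 2 bases before it) for Per1. They are chr4:151044708-151044915 (minus strand, 250 to 43 bases before the start) for Per3 and chr13:52981040-52981069 (minus strand, the last 30 bases) for Nfil3.
Cry1: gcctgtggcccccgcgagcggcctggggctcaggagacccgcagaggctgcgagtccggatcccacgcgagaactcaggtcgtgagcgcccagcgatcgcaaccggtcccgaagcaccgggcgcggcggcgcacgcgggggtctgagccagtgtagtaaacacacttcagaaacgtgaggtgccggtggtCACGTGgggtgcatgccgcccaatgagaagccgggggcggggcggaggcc
Per1: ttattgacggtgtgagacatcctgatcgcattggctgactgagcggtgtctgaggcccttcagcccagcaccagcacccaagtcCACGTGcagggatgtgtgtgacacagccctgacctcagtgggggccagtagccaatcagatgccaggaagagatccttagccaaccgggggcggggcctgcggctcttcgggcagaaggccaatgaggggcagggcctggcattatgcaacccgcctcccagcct
Per3: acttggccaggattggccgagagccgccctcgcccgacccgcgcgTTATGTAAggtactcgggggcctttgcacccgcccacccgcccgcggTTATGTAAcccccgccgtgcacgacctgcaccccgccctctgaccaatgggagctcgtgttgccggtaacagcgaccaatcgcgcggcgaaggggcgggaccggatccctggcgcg
Nfil3: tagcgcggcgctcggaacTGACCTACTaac
The E-box lies 60 bases before the start of Cry1 and 166 bases before that of Per1, and the D-box letters occur in Per3 at both 205 and 158 bases. The match in Nfil3 is the RORE read on the opposite strand, 12 bases before the start. The windows of Per1 and Nfil3 lie within the span of the RefSeq gene, which begins farther upstream. A match describes letters in these windows only and does not show that a factor was bound.

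No clock gene passed the test for a difference after 24 h of IL-1β. With edgeR's quasi-likelihood test and Benjamini-Hochberg adjustment over 11657 genes, 0 of the 10 members had an adjusted p below 0.05, whereas 13.4% of all genes tested did (6.97% higher and 6.44% lower after IL-1β). At an unadjusted p below 0.05 there were 2 members, Cry1 and Nfil3, both with higher values after IL-1β, beside 23.6% of all genes. DESeq2 likewise called 0 members and gave 2 at an unadjusted p below 0.05. In 1 member, Cry1, no IL-1β library overlapped a control library, which was the case for 28.2% of all genes. Changes are given below as the log2 ratio of IL-1β to control fitted by edgeR. Its median was -0.0057 over the 10 members and -0.0018 over all genes tested.

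**Figure D1:**
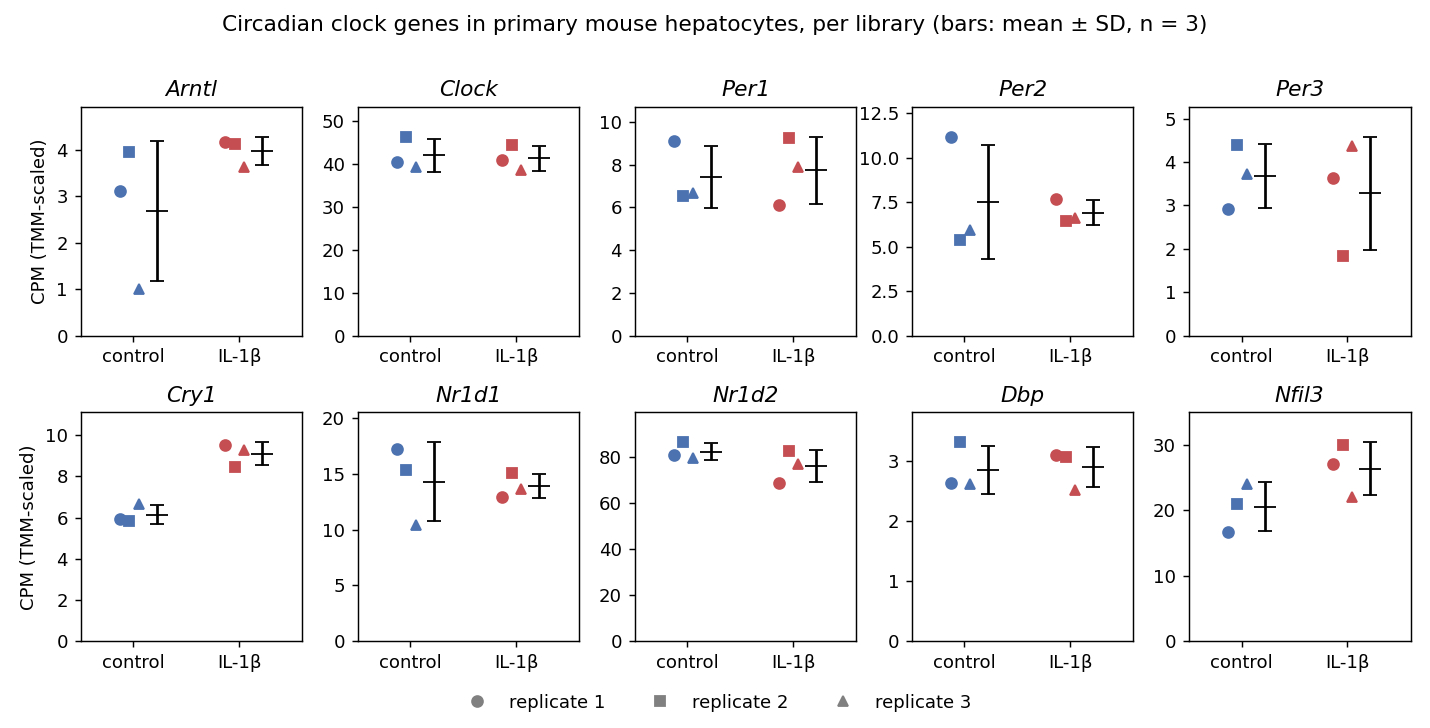
Normalized counts (CPM, reads scaled to a common library size after TMM normalization, linear axes from 0) of the 10 clock genes in the 3 control and 3 IL-1β libraries, with symbols for the replicate number and bars for the mean ± SD (n = 3). Cry1 is the gene whose IL-1β libraries (8.45 to 9.51 CPM) all lie above the controls (5.82 to 6.65 CPM), and Arntl and Per2 each have 1 control library far from the other two.

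The activators of the loop were examined first. Clock lies at chr5:76209868-76304792 (GRCm38, minus strand) and encodes the DNA-binding partner of BMAL1. It was measured at 40.6, 46.5 and 39.3 CPM in the controls and at 40.9, 44.6 and 38.6 CPM after IL-1β. The groups overlapped throughout, with a log2 ratio of -0.03 (standard error 0.11, adjusted p = 0.924, edgeR). The 95% interval for the ratio of IL-1β to control was 0.844 to 1.14. Arntl, at chr7:113207465-113314126 (plus strand), was at 3.10, 3.94 and 1.01 CPM in the controls and at 4.17, 4.13 and 3.63 CPM after IL-1β. The low control library held 10 reads of Arntl, against 33 and 44 in the other controls and 39, 43 and 39 after IL-1β. The control and IL-1β ranges overlapped, and the low library was below all others. Its exact Poisson interval of 0.483 to 1.85 CPM, which covers counting error only, did not reach the intervals of the other controls (2.13 to 4.35 and 2.86 to 5.29 CPM). The log2 ratio of Arntl was 0.55 (standard error 0.39, adjusted p = 0.432, edgeR) and depended on single controls, since it was 0.17 (adjusted p = 0.854) without control replicate 3 and 0.94 (adjusted p = 0.222) without control replicate 2. The interval of the Arntl ratio, 0.844 to 2.55, was the widest upwards among the members.

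The Period genes encode the inhibitors that carry the delay of the loop. Per1, at chr11:69098956-69109957 (plus strand), was at 9.11, 6.53 and 6.65 CPM in the controls and at 6.09, 9.22 and 7.90 CPM after IL-1β. Its highest and lowest libraries were both IL-1β libraries, and the log2 ratio was 0.06 (standard error 0.23, adjusted p = 0.922, edgeR). Per2, at chr1:91415982-91459328 (minus strand), was at 11.2, 5.37 and 5.94 CPM in the controls and at 7.70, 6.44 and 6.60 CPM after IL-1β. Control replicate 1 stood above the other 5 libraries, with a counting interval of 9.26 to 13.4 CPM that did not reach those of the other controls (4.10 to 6.91 and 4.53 to 7.67 CPM). The log2 ratio of Per2 was -0.12 (standard error 0.26, adjusted p = 0.851, edgeR), and it turned to 0.29 (adjusted p = 0.589) without control replicate 1. Per3, at chr4:151003655-151044665 (minus strand), had between 19 and 49 reads per library. Its levels were 2.91, 4.39 and 3.73 CPM in the controls and 3.63, 1.83 and 4.37 CPM after IL-1β, so that the lowest library was IL-1β replicate 2 and the next lowest was a control. The log2 ratio of Per3 was -0.17 (standard error 0.36, adjusted p = 0.846, edgeR), which turned to 0.13 without IL-1β replicate 2. The intervals of the IL-1β to control ratio were 0.749 to 1.45 for Per1, 0.633 to 1.34 for Per2 and 0.535 to 1.48 for Per3, each including 1.

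Cry1, which encodes a cryptochrome that inhibits the CLOCK and BMAL1 dimer, came nearest to the threshold. The gene lies at chr10:85131700-85185054 (minus strand). It was at 5.92, 5.82 and 6.65 CPM in the controls and at 9.51, 8.45 and 9.30 CPM after IL-1β, or 63 to 66 reads against 88 to 100. Every IL-1β library was above every control (exact permutation test of the log2 values, two-sided p = 0.1, the smallest that 3 against 3 samples allow). The log2 ratio was 0.57 (standard error 0.22), a ratio of 1.48 with a 95% interval of 1.09 to 2.02, and the adjusted p was 0.0893 (unadjusted p = 0.0145, edgeR). Over 15 other settings, including each library left out, the log2 ratio of Cry1 lay between 0.50 and 0.63 and the adjusted p between 0.0606 and 0.206, above the threshold in each of them. Per1, the other member with an E-box in the window shown above, had overlapping groups. The difference between the responses of Cry1 and Per1 was not tested.

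**Figure D2:**
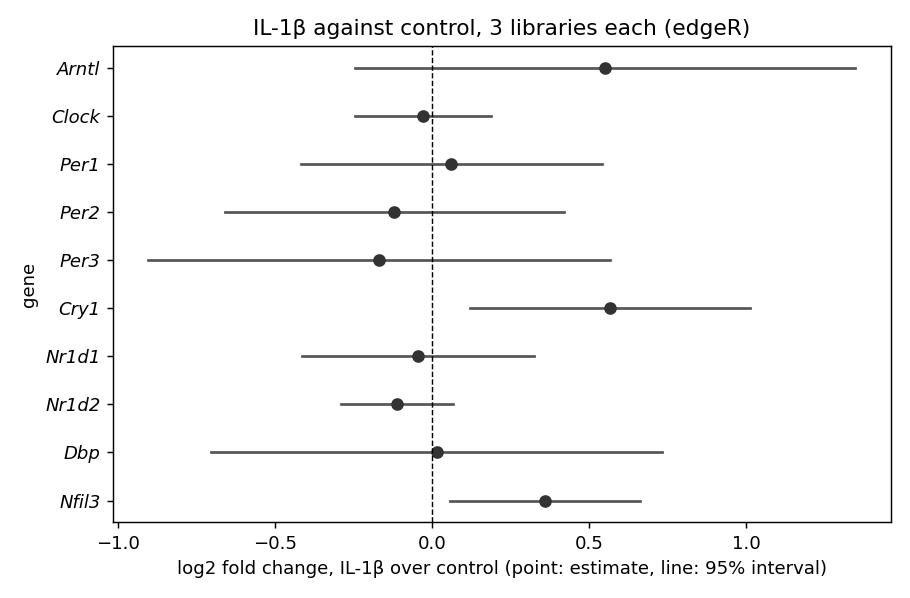
Log2 ratio of IL-1β to control in each clock gene by edgeR (points) with 95% intervals (lines) on 3 libraries per group. The intervals of Cry1 (0.12 to 1.01) and Nfil3 (0.06 to 0.66), unadjusted for the number of genes, lie above 0, and those of the other 8 genes include 0.

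The receptors REV-ERBα and REV-ERBβ form the repressor arm of the second loop. Nr1d1, at chr11:98767932-98775377 (minus strand), was at 17.2, 15.3 and 10.4 CPM in the controls and at 12.9, 15.1 and 13.7 CPM after IL-1β. The 3 IL-1β libraries fell within the range of the controls, and the log2 ratio was -0.04 (standard error 0.18, adjusted p = 0.930, edgeR). Nr1d1 ends against the thyroid hormone receptor gene Thra on the opposite strand, and GENCODE M21 gives the genes 1075 shared bases, 263 of them in exons of both. Whether the counting used strand was not given in the sources used here, so reads from that stretch cannot be assigned with certainty. Thra had 134 to 177 reads per control library and 112 to 162 per IL-1β library, with a log2 ratio of -0.11 (adjusted p = 0.770, edgeR). Nr1d2, at chr14:18204056-18239106 (minus strand), had the most reads of the members, 643 to 964 per library, and the smallest standard error. It was at 80.9, 86.3 and 79.3 CPM in the controls and at 68.7, 82.4 and 77.0 CPM after IL-1β. Here IL-1β replicates 1 and 3 were below all controls and replicate 2 was among them. The log2 ratio of Nr1d2 was -0.11 (standard error 0.087, adjusted p = 0.502, edgeR), and its ratio had an interval of 0.818 to 1.05. Among the 10 members, Nr1d2 and Clock thus had the narrowest intervals.

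The D-box factors were the last members. Dbp, an albumin D-site binding activator at chr7:45705247-45710203 (plus strand), had between 26 and 37 reads per library. It was at 2.63, 3.31 and 2.62 CPM in the controls and at 3.10, 3.07 and 2.51 CPM after IL-1β. The group means of Dbp were 2.85 ± 0.397 CPM (SD, n = 3) and 2.89 ± 0.334 CPM (SD, n = 3), a log2 ratio of 0.02 (standard error 0.35, adjusted p = 0.988, edgeR) that changed sign with the scaling of the libraries. The interval of its ratio ran from 0.614 to 1.66. The 3′ end of Dbp overlaps Sphk2 on the opposite strand by 737 bases, 539 of them exonic in both, with the same uncertainty about strand, and Sphk2 had 204 to 313 reads per library (log2 ratio 0.15, adjusted p = 0.558, edgeR). Of the other annotated genes that overlap a member or lie within 2 kb of one, none of those tested had an adjusted p below 0.05. Among them, Camta1 spans Per3 on the same strand without shared exon bases (log2 ratio 0.53, adjusted p = 0.277, edgeR). Gm45355 overlaps Arntl on the opposite strand, with 33 bases exonic in both, and was not among the genes counted.

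Nfil3 encodes the D-box repressor, a factor first named for its induction by the cytokine interleukin 3. The gene lies at chr13:52967209-52981039 (minus strand). It was at 16.6, 20.9 and 24.1 CPM in the controls and at 27.2, 30.0 and 22.03 CPM after IL-1β. IL-1β replicates 1 and 2 were above all controls, while IL-1β replicate 3 was below control replicate 3. Means of 20.6 ± 3.74 CPM (SD, n = 3) and 26.4 ± 4.03 CPM (SD, n = 3) gave a log2 ratio of 0.36 (standard error 0.15), a ratio of 1.28 with an interval of 1.04 to 1.58. The adjusted p of Nfil3 was 0.1198 (unadjusted p = 0.0218, edgeR). It passed the threshold only without control replicate 3, at a log2 ratio of 0.49 and an adjusted p of 0.0474, and reached 0.418 in another of the 15 other settings, without IL-1β replicate 2.

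The balance of the D-box factors was also taken within each library, where scaling has no effect. The ratio of Nfil3 to Dbp reads was 6.32, 6.32 and 9.19 in the controls and 8.76, 9.75 and 8.78 after IL-1β. Control replicate 3 lay among the IL-1β libraries, and the other controls lay below them. On the log2 scale, the mean was 2.82 ± 0.31 (SD, n = 3) in the controls and 3.16 ± 0.090 (SD, n = 3) after IL-1β, a difference of 0.34 (exact permutation test, two-sided p = 0.3, where 0.1 is the smallest possible). Without control replicate 3 the difference was 0.52 (exact permutation test, two-sided p = 0.1), and over the other libraries left out it was 0.25 to 0.37.

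The clock genes were also compared by their spread among libraries of the same group. The SD of log2(CPM + 1) among the controls exceeded the median of all genes tested (0.145) in 6 of the 10 members, and among the IL-1β libraries it exceeded that median (0.131) in 3. A median is exceeded by as many genes as fall below it, so neither count is a result about the members. The SD was larger among the controls than after IL-1β in 7 members. Across the genes tested, pairs of control libraries also differed more (chi-square per degree of freedom 6.11 to 9.96) than pairs of IL-1β libraries (4.14 to 4.74). The share of all genes with a larger SD among the controls was not taken, so the 7 members are no result about the clock genes. The members with the widest SD were Arntl, with 0.69 among the controls and 0.090 after IL-1β, and Per2, with 0.51 and 0.12. Nr1d1 followed with 0.35 and 0.10. In Per3 the order was the other way round, at 0.23 among the controls and 0.49 after IL-1β. Cry1 had narrow groups on both sides, at 0.090 and 0.081. These SDs come from 3 libraries each, and the spread of the groups was not compared by a test. The SD that counting alone gives at these read numbers was 0.19 for Arntl, 0.15 for Per2, 0.11 for Nr1d1, 0.19 for Per3 and 0.20 for Dbp. It was 0.14 for Per1 and for Cry1. In Arntl, Per2, Per3 and Dbp, counting alone thus gives an SD above the control median of 0.145. The members did not share 1 outlying library. In control replicate 1, Per1, Per2 and Nr1d1 were at their highest among the controls, Per3 and Nfil3 at their lowest, and the other 5 members in between. In control replicate 3, Cry1 and Nfil3 were at their highest among the controls, Arntl, Clock, Nr1d1, Nr1d2 and Dbp at their lowest, and Per1, Per2 and Per3 in between.

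**Figure D3:**
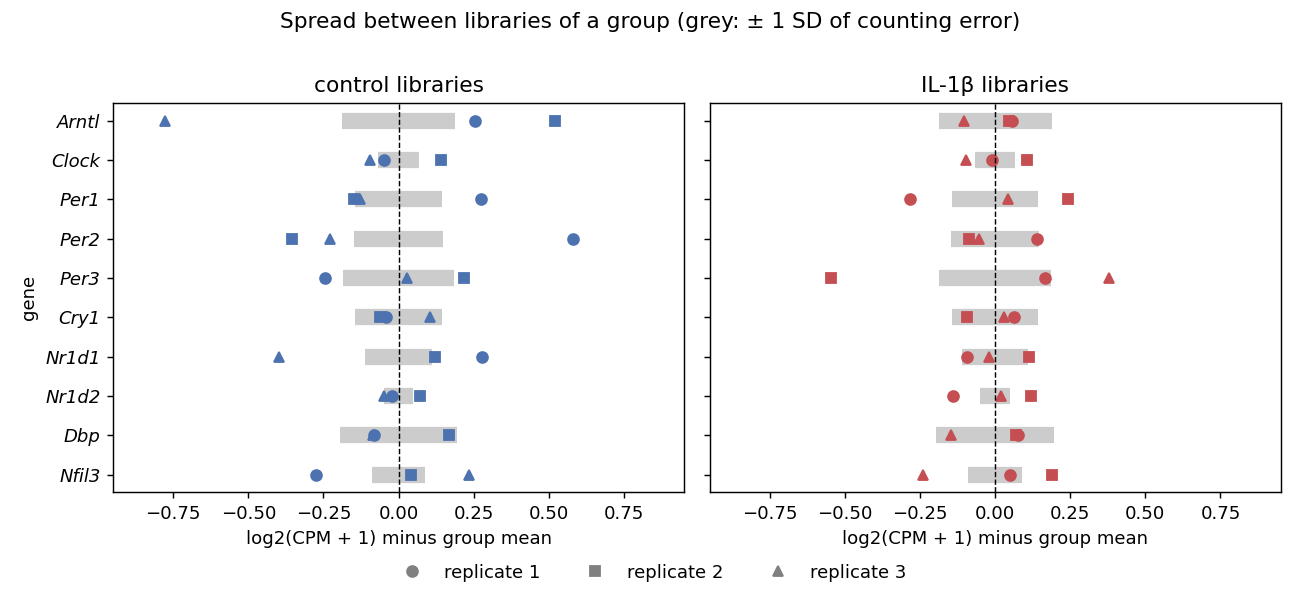
Log2(CPM + 1) of each clock gene in each library minus the mean of its group, for the 3 control libraries (left) and the 3 IL-1β libraries (right), with grey bars for ± 1 SD of counting error at the gene's mean count. Control replicate 3 of Arntl (-0.78) and control replicate 1 of Per2 (0.58) are the points farthest from their group means.

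The rest of the clock was followed in lists of related genes. Of 13 further core components and paralogs, 11 were tested, with 1 called higher, 0 called lower and a median log2 ratio of 0.09. This 1 of 11 is near the 13.4% called among all genes. The gene that rose was Rora, which encodes the receptor that activates Arntl through the RORE. It was at 132.6, 135.4 and 129.3 CPM in the controls and at 166.3, 167.1 and 141.4 CPM after IL-1β, with no overlap (log2 ratio 0.26, standard error 0.076, adjusted p = 0.0246, edgeR). The call of Rora was lost with total-count scaling (0.0860) and without control replicate 3 (0.0867), IL-1β replicate 1 (0.127) or IL-1β replicate 2 (0.139), while its log2 ratio stayed above 0 throughout. Bhlhe41, a repressor at the E-box, had 15 to 29 reads per control library and 3 to 13 per IL-1β library, and a log2 ratio of -1.30 (adjusted p = 0.121, edgeR). Timeless gave -0.55 (adjusted p = 0.142). The second cryptochrome gene, Cry2, varied from 4.79 to 11.5 CPM among the controls. Rorb was at 0 in every library, and Npas2, a substitute for Clock, had at most 7 reads in any library and was not tested.

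Among 24 kinases, ubiquitin ligases and chromatin cofactors that act on clock proteins, 23 were tested, with a median log2 ratio of -0.02. By edgeR's quasi-likelihood test 0 were called, beside 13.4% of all genes. At an unadjusted p below 0.05 there were 3, beside 23.6% of all genes. They included Nono (log2 ratio -0.26, adjusted p = 0.0527), an RNA-binding partner of the Period proteins, and Csnk2a2 (0.20, 0.166), a casein kinase subunit. Nono passed the threshold in 8 of the other settings, in each with a lower value after IL-1β, and did not pass with DESeq2. DESeq2 called 0 genes of this list.

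Of 20 genes that follow the clock in liver, 13 were tested, and 4 were higher (6.97% of all genes were) and 0 lower at an adjusted p below 0.05, with a median log2 ratio of 0.06. Rgs16, a regulator of G protein signaling, had 12, 3 and 2 reads in the controls and 71, 97 and 78 after IL-1β (log2 ratio 3.88, standard error 0.43, adjusted p = 2.0e-07, edgeR). The control reads of Rgs16 were few, and its log2 ratio was 5.02 without control replicate 1 and 2.61 by limma on log2(CPM + 1). Noct, listed in the table under its older name Ccrn4l, encodes nocturnin, a phosphatase with a strongly rhythmic transcript in liver. Noct was at 16.9, 19.9 and 21.6 CPM in the controls and at 69.4, 66.6 and 64.7 CPM after IL-1β, a log2 ratio of 1.78 (standard error 0.11, adjusted p = 3.7e-12, edgeR). Alas1, the first enzyme of haem synthesis, rose after IL-1β, with 61.7 ± 7.89 CPM in the controls and 84.4 ± 2.77 CPM in the treated libraries (SD, n = 3), a log2 ratio of 0.45 (adjusted p = 0.0011, edgeR). Nampt, which salvages nicotinamide to NAD, likewise rose, with 138 ± 9.81 CPM in the controls against 178 ± 4.21 CPM (SD, n = 3) and a log2 ratio of 0.37 (adjusted p = 0.000732, edgeR). Whether the share of called genes differs between this list and the core was not tested.

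Glucocorticoid and cAMP signals, which are among the inputs that reset hepatocyte clocks, were represented by 13 genes, all tested. At an adjusted p below 0.05, 2 were lower and 0 higher, with a median log2 ratio of 0.02. These 2 of 13 are a share near the 13.4% called among all genes, so the count is no result about the list. The genes that fell were Zbtb16 (log2 ratio -0.98, adjusted p = 0.0021, edgeR), a glucocorticoid-induced transcription factor, and Tat (-1.71, adjusted p = 0.0088), a tyrosine-degrading enzyme that is also a hepatocyte marker. Tat had 28 to 43 reads per control library and 5 to 13 per IL-1β library, and without IL-1β replicate 1 it no longer passed (adjusted p = 0.0662). The receptor gene Nr3c1 had a log2 ratio of -0.15 (adjusted p = 0.420), and Fkbp5, induced through that receptor, had 0.02 (adjusted p = 0.975).

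**Figure D4:**
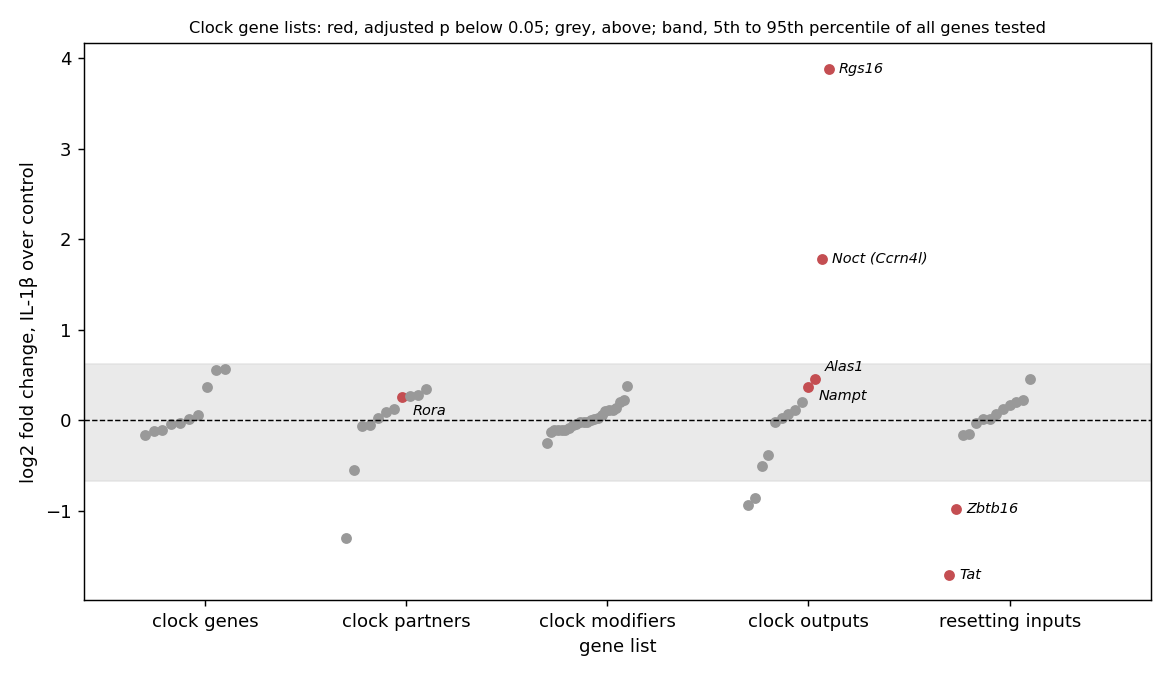
Log2 ratios of IL-1β to control of the tested genes in the 10 clock genes and 4 related lists, with genes at an adjusted p below 0.05 in red and named, others in grey, and a band from the 5th to the 95th percentile of all genes tested (-0.67 to 0.62). All 10 clock genes lie inside the band, whereas, among the named genes, Rgs16 (3.88) and Noct (1.78) lie above it and Zbtb16 (-0.98) and Tat (-1.71) below it.

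The transcripts most like Dbp and Nfil3 over the 6 libraries were listed without a test. By Pearson's r of log2(CPM + 1), they were Exoc3 (0.988), Arhgef26 (0.963) and Wdr20 (0.962) for Dbp, and Tnip2 (0.994), Mphosph10 (0.993) and Akr1c13 (0.987) for Nfil3. The 6 points are the same libraries in their 2 groups for every gene, and the highest of so many correlations over 6 points are large by selection.

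Across the table, edgeR called 1563 of 11657 genes, and the higher ones made up 52.0% of the calls, or 39.6% with total-count scaling. Total counts ranged from 9538741 to 11105408 per library, and 3 reads, the detection floor used here, equaled 0.269 to 0.321 CPM. Of the hepatocyte markers, 7 of 8 were called lower after IL-1β. Their summed level was 20505 to 20727 CPM in the controls and 16974 to 17874 CPM after IL-1β. Alb made up most of it, with means of 16200 CPM in the controls and 14104 CPM after IL-1β. By contrast, Cps1 and Tat had control means of 2.65 and 3.22 CPM. For such bulk samples, fewer cells of a type and less RNA per cell cannot be told apart. The summed level of 13 Kupffer cell and macrophage markers was 239 to 273 CPM in the controls and 244 to 277 CPM after IL-1β, and 0 of the 10 tested were called. Most of this sum came from Cd68 (mean 192 CPM in the controls and 184 CPM after IL-1β). Clec4f, Vsig4 and Timd4 had too few reads to be tested, so the sum says little about Kupffer cells. The summed level of 10 endothelial markers was 89.2 to 100.4 and 85.7 to 91.4 CPM, with 1 higher and 3 lower. That of 10 stellate cell markers was 20.96 to 24.1 and 22.6 to 28.5 CPM, with 0 of 3 tested called. Among 7 cholangiocyte markers (316 to 329 and 236 to 240 CPM), Spp1 was lower. Of the lymphocyte and neutrophil markers, Cd3e, Cd3g, Cd79a and S100a9 were at 0 in every library and S100a8 was higher, at 0 reads in each control. The part of these shifts in the values of the clock genes was not tested.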

How the data were processed

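QuantSeq 3′ libraries, which read the 3′ end of polyadenylated RNA, were sequenced by the authors from 6 hepatocyte cultures with single-end reads of 75 nt and aligned with Bowtie2, and edgeR is named in their notes for the comparison. Per the labels, the builds were mm10 and GRCm38. The counting tool, its strand setting and its handling of reads that match several genes were not given in the sources used here. The authors deposited raw read counts per gene, which were used here. Their log2 normalized values, group averages, fold changes and p-values in the same table were not used. Samples were grouped by their titles. The counts entered edgeR 4.0.16, run under R 4.3.3 (filterByExpr, TMM, quasi-likelihood test, Benjamini-Hochberg adjustment over all genes tested), after tests on simulated data. Standard errors are the log2 fold change divided by the square root of F. CPM values use TMM-scaled library sizes, and log2 values add 1 CPM. Exact permutation tests were two-sided.

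Alternatives were DESeq2 1.42.0, limma 3.58.1 on log2(CPM + 1) or log2(CPM + 0.1), edgeR's exact test, other scalings, filters and thresholds, the replicate number as a block, and each library left out. Deviations from the group means of same-numbered control and IL-1β libraries correlated by 0.075, 0.027 and -0.005, so the numbers were not treated as pairs. Within a group, libraries differed by more than counting error (chi-square per degree of freedom 6.11 to 9.96 among the controls and 4.14 to 4.74 after IL-1β). Positions are those of the table, checked against RefSeq genes of GRCm38.p6, and promoter windows are from RefSeq on that build.

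The members and gene lists were chosen with earlier results of these data known. Named were all members, the overlapping genes Thra, Sphk2, Camta1 and Gm45355, and up to 4 genes with the smallest adjusted p in each clock list. The marker lists were given by sum, and the 3 genes most correlated with Dbp and with Nfil3 were named. Cry2, Npas2, Rorb, Nr3c1, Fkbp5, Alb, Cps1, Spp1, S100a8, Cd68, Clec4f, Vsig4 and Timd4 were named after their values were seen. Some members of these lists are not reported here.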

Additional observations from a re-analysis of the deposited data

How the results depend on the processing

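The count of 0 clock genes at an adjusted p below 0.05 held in each other setting except without control replicate 3, where it was 1 (Nfil3), so that it was 0 to 1 with a library left out. With the replicate number as a block it was also 0, and that block called 1671 genes in all and Nono (1) among the clock modifiers. All genes called numbered 1563, with 996 at an adjusted p below 0.01, 769 with a fold change over 1.5 added, and 1131 to 1596 with a library left out. The count of 1 clock partner became 0 with total counts, at an adjusted p below 0.01 and with a fold change over 1.5, and 0 to 1 with a library left out. The count of 0 clock modifiers became 1 (Nono) with upper-quartile scaling, total counts, no filter, a minimum of 10 reads per library, the exact test of edgeR and limma on log2(CPM + 1), and 0 to 1 with a library left out. The 4 clock outputs became 2 with a fold change over 1.5 and 3 with a minimum of 10 reads per library. With no filter they became 5, of which 4 were higher. The 2 resetting inputs became 1 with a minimum of 10 reads per library and 1 to 3 with a library left out. The cause was not tested, apart from the stricter thresholds and the fewer genes or samples of some settings.

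Of 150 values for the 10 members, 133 kept their direction and side of the threshold, 1 passed it and 16 changed sign, the lowest adjusted p among these being 0.589. Dbp was -0.013 with upper-quartile scaling and -0.036 with total counts. With a library left out, Dbp ranged from -0.043 to 0.14, Clock from -0.081 to 0.054, Per1 from -0.079 to 0.23, Per2 from -0.31 to 0.29, Per3 from -0.44 to 0.13 and Nr1d1 from -0.23 to 0.11, while Arntl stayed above 0, from 0.17 to 0.94, and the log2 ratio of Nfil3 to Dbp reads differed between groups by 0.25 to 0.52, most without control replicate 3. Arntl, Dbp and Per3, with fewer than 50 reads per library, were the members most limited by depth.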
